A study of Homo sapiens with 12 samples.

Results

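The genes described here make cholesterol and fatty acids. A list of 29 gene symbols named the enzymes of the mevalonate pathway, of sterol synthesis and of fatty acid synthesis and desaturation, together with regulators of these enzymes and a sterol carrier. Of the 29 genes, 27 were measured by a probe set listed with that symbol alone, out of 18404 genes in all. The other two, FDFT1 and HSD17B7, are not analysed here. Membership goes by gene symbol.

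JHU-029 and FaDU are established lines derived from squamous carcinomas of the head and neck. Each line received, by lentivirus, either a control vector (shControl) or a short hairpin RNA against TP63 (shTP63), the gene of the basal keratinocyte transcription factor p63, and RNA was taken 72 hours later. The 4 groups (JHU-029 shControl, JHU-029 shTP63, FaDU shControl and FaDU shTP63) held 3 Affymetrix Human Gene ST arrays each. Both lines grew in medium with serum (RPMI, DMEM or DMEM/F12, with no line tied to a medium). Whether the 3 arrays of a group represent separate cultures is not stated, so a p-value here reflects nothing beyond the spread among these arrays, which may be technical. The labels name no hairpin sequence, and TP63's own level is not analysed here.

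The mevalonate pathway turns acetyl-CoA into isoprenoid units, which are joined to squalene, closed into lanosterol and trimmed to cholesterol. Fatty acid synthesis draws on the same acetyl-CoA. Both are switched on by the sterol regulatory element-binding proteins (SREBPs), membrane-held transcription factors encoded by SREBF1 and SREBF2 that are released when membrane sterol is low, and squamous epithelium uses the products for its membranes and for the lipids of the skin barrier.

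SREBPs bind a sterol regulatory element (SRE) and act together with NF-Y, a factor that binds the CCAAT box, so these letters were looked for in the promoters. The letters TCACNCCAC stood for the SRE and CCAAT for the CCAAT box, each on both strands, within the 250 bases before a start site. RefSeq (GRCh38.p14) gave 33 such windows for 24 of the 27 genes. A CCAAT box was present in 22 of the 33 windows (66.7%), against 32.6% of the 20100 windows of the genes tested and 32% of all 35116 windows of the same length. It was present in 14 of 19 windows (73.7%) of the synthesis genes that fell in FaDU and in 8 of 14 windows (57.1%) of the other synthesis genes. The exact SRE letters were present in 1 of the 33 windows (3.03%), that of SREBF2, against 0.886% of the windows of genes tested and 0.883% of all windows. Other spellings of the element were not searched. The GC box GGGCGG was present in 29 of 33 windows (87.9%, against 54.7% of the windows of genes tested and 42.6% of all windows), and the E-box CACGTG in 3 of 33 (9.09%, against 7.39% and 6.34%). Windows of alternative starts of a gene can overlap, and a match describes letters only.

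Promoters are printed for 5 genes on which the results turn. SREBF2 fell in both lines and holds the SRE match, STARD4 and EBP fell in FaDU and hold several CCAAT boxes, TM7SF2 rose in FaDU, and ELOVL6 moved in opposite directions in the lines. They lie at chr22:41832855-41833104 (plus strand, SREBF2), chr5:111512536-111512785 (minus strand, STARD4), chrX:48521558-48521807 (plus strand, EBP), chr11:65111622-65111871 (plus strand, TM7SF2) and chr4:110198616-110198865 (minus strand, ELOVL6). Capitals mark the SRE and the CCAAT box, which reads ATTGG on the opposite strand, and each sequence ends at the base before the start.
SREBF2: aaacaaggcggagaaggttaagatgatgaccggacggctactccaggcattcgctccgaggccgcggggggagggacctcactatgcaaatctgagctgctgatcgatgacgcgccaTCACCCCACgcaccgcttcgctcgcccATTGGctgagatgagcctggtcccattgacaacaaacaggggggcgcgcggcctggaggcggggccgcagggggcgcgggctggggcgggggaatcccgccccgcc
STARD4: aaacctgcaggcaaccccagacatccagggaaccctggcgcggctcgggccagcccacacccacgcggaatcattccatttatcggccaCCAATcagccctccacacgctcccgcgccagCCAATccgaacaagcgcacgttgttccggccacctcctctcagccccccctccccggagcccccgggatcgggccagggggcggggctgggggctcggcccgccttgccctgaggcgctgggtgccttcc
EBP: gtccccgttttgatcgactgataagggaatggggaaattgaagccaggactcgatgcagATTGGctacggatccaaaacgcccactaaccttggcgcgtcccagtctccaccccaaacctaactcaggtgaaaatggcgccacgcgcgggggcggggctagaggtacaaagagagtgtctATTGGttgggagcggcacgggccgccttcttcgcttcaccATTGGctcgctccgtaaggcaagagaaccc
TM7SF2: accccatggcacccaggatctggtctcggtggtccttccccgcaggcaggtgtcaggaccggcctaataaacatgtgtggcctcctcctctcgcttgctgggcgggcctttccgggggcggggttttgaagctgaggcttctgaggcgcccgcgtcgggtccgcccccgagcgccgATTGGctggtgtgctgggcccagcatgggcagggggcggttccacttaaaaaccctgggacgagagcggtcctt
ELOVL6: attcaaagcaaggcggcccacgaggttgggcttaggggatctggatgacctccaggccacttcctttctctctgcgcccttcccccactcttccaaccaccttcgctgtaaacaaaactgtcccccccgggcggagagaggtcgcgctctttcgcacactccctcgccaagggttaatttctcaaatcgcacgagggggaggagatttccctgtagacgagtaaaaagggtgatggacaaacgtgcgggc
In SREBF2 the SRE lies 133 to 125 bases before the start and the CCAAT box follows at 106 to 102, without overlap. STARD4 has CCAAT boxes at 161 to 157 and 130 to 126 bases before the start. EBP has them at 191 to 187, 70 to 66 and 30 to 26, and TM7SF2 has 1 box at 74 to 70. The window of ELOVL6 holds neither set of letters. Among genes not printed, MVK and NSDHL hold several CCAAT boxes and had no called change in FaDU. CYP51A1 was called lower there and holds no CCAAT box.

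After TP63 knockdown in FaDU, 16 of the 27 synthesis genes fell, 1 rose and 10 did not pass the test. A gene passed when the two-sided moderated test of limma gave a p below 0.05 after Benjamini-Hochberg adjustment over all 18404 genes. Over all genes, 14.2% were called lower and 12.4% higher in FaDU. Most synthesis genes are bright, and brighter genes were called more often. With genes dimmer than the median gene left out, 17 of 26 synthesis genes fell and 1 rose. Of the 9202 genes kept in that fit, 29% were called lower and 21.7% higher. The falls were spread over every role, with 4 of 7 mevalonate enzymes, 6 of 9 squalene and sterol enzymes, 2 of 4 regulators and carriers, and 4 of 7 fatty acid enzymes. They were small, from 1.14-fold for SQLE to 1.34-fold for DHCR7, and no synthesis gene reached 1.5-fold after knockdown in either line. The median log2 change of the 27 genes was -0.21, against 0.02 for all genes. Among genes called lower, the median log2 change was -0.27 for the 16 synthesis genes and -0.36 for all 2609 genes. The 3 FaDU shTP63 arrays lay below the 3 shControl arrays for 19 synthesis genes and above them for 3, while 18.0% of all genes lay wholly below and 18.1% wholly above.

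Of the 16 falls, 7 held in all alternative analyses (ACAT2, MVD, DHCR7, STARD4, ACACA, FASN and ELOVL6), as did the rise of TM7SF2. The number of falls was 9 when FaDU was fitted alone, where 10.7% of all genes were called lower against 14.2% in the main fit. The titles of FaDU shControl replicates 1 and 2 carry a word that those of shControl replicate 3 and the FaDU shTP63 arrays lack. What it marks is not stated, and it falls unevenly between the FaDU groups. Without these control arrays the median log2 change of the 27 genes was -0.22. Several of the 16 calls were lost in that fit, as given by gene below. It leaves 1 FaDU control array, which is assumed to vary like the other groups.

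In JHU-029, SREBF2 fell, ELOVL6 rose and 25 synthesis genes did not pass the test, with 3.15% of all genes called, 1.35% lower and 1.8% higher. The log2 change was negative for 20 of the 27, and its median was -0.06. The 3 knockdown arrays lay wholly below the controls for 8 synthesis genes (11.7% of all genes) and wholly above them for 1 (13.3%). An unadjusted p under 0.05 was reached by 5 of the 27 (18.5%), near the 14.8% of all genes. Set against the mean of the line's own controls, the median synthesis gene stood at -0.24, -0.15 and -0.21 log2 units on the 3 FaDU shTP63 arrays and at -0.12, -0.06 and -0.03 on the 3 JHU-029 shTP63 arrays. The control arrays lay between -0.02 and 0.04, and the FaDU knockdown arrays lay lowest. Each control array is part of the mean it is set against, which draws the control values toward 0. JHU-029 shTP63 replicate 3 (-0.0316) lay close to JHU-029 shControl replicate 2 (-0.0234). The members' median varied between arrays of a group with an SD of 0.0363, so the JHU-029 groups are not clearly apart on this measure. JHU-029 shControl replicate 1 stood highest at 0.04, with 1 of 27 genes below the control mean. The JHU-029 median change of -0.0628 was -0.0574 without that array, -0.0413 without JHU-029 shTP63 replicate 1 and -0.0908 without JHU-029 shTP63 replicate 3.

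**Figure D1:**
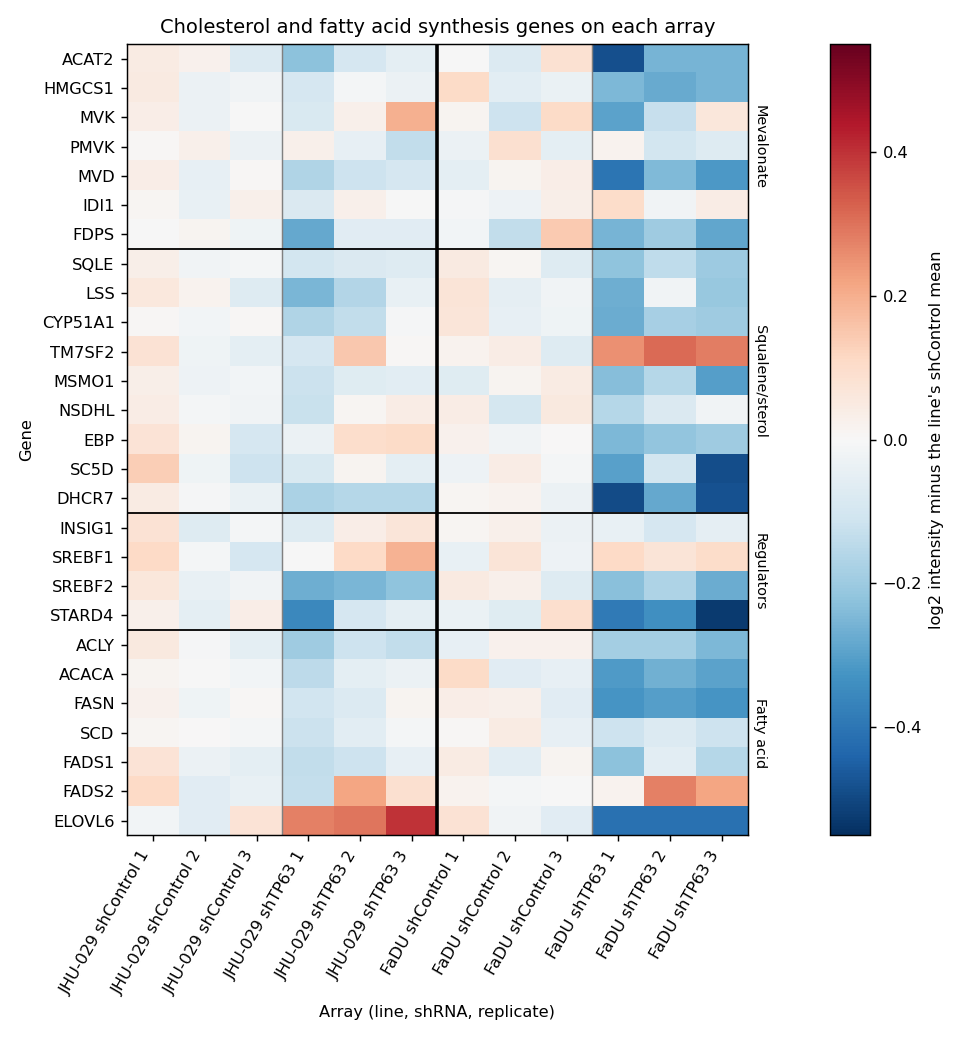
Log2 difference of each synthesis gene (rows, grouped by role) on each of the 12 arrays (columns) from the mean of the 3 shControl arrays of the same line, with blue lower and red higher. The FaDU shTP63 columns are mostly blue, ELOVL6 is red in JHU-029 shTP63 and blue in FaDU shTP63, and TM7SF2 is red in FaDU shTP63.

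The mevalonate pathway opens with ACAT2 (probe set 8123137), the cytosolic thiolase that joins acetyl-CoA units. In FaDU its log2 intensity was 9.25, 9.18 and 9.34 under shControl and 8.77, 9.0 and 9.0 under shTP63, a fall of 1.26-fold (log2 change -0.33, SE 0.08, adjusted p = 0.00687). In JHU-029 it was 10.82, 10.80 and 10.70 against 10.55, 10.68 and 10.72 (log2 change -0.13, adjusted p = 0.537). The groups were apart in FaDU and overlapped in JHU-029.

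HMGCS1 (probe set 8111941), the synthase that makes HMG-CoA, read 11.62, 11.46 and 11.48 under shControl in FaDU and 11.27, 11.24 and 11.26 under shTP63 (log2 change -0.26, SE 0.06, adjusted p = 0.00408). Its JHU-029 arrays read 12.77, 12.69 and 12.70 against 12.63, 12.71 and 12.69 (log2 change -0.04, adjusted p = 0.834). The FaDU knockdown arrays lay close together and below every FaDU control, while the JHU-029 groups overlapped. Without the FaDU shControl replicates 1 and 2, HMGCS1 missed the threshold in FaDU (adjusted p = 0.0528).

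MVD (probe set 8003332), the decarboxylase that yields the first isoprenoid unit, fell in FaDU from 8.55, 8.62 and 8.64 to 8.20, 8.36 and 8.29 (log2 change -0.32, SE 0.06, adjusted p = 0.000897). Its JHU-029 levels were 8.96, 8.88 and 8.93 against 8.76, 8.81 and 8.83 (log2 change -0.13, adjusted p = 0.317). The knockdown arrays of MVD lay below the controls in both lines, and the change passed the test in FaDU.

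FDPS (probe set 7905986) makes farnesyl diphosphate, the branch point to squalene and to prenyl groups. It read 9.70, 9.58 and 9.86 under shControl in FaDU and 9.46, 9.52 and 9.43 under shTP63 (log2 change -0.24, SE 0.08, adjusted p = 0.0386). Values in JHU-029 were 9.34, 9.36 and 9.32 against 9.06, 9.28 and 9.28 (log2 change -0.14, adjusted p = 0.505). The FaDU control with the highest value, replicate 3, stood apart from the others. Without it the FaDU change was -0.17 (adjusted p = 0.149). The FDPS call was also lost without FaDU shControl replicate 1 (adjusted p = 0.0739), any FaDU shTP63 replicate (0.0507 to 0.105) or any JHU-029 shControl replicate (0.0532 to 0.0544), and with FaDU fitted alone (0.0858). Further probe sets that list FDPS with the pseudogene FDPSP2 were not used, and transcripts of near-identical copies may share probes.

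The kinases MVK (probe set 7958565) and PMVK (probe set 7920567), which phosphorylate mevalonate in turn, did not pass the test after knockdown. MVK read 8.02, 7.89 and 8.11 against 7.71, 7.88 and 8.07 in FaDU (log2 change -0.12, 95% interval -0.33 to 0.09) and 9.31, 9.24 and 9.27 against 9.19, 9.30 and 9.47 in JHU-029 (0.05). PMVK read 7.51, 7.63 and 7.49 against 7.56, 7.44 and 7.47 in FaDU (-0.05) and 6.85, 6.87 and 6.81 against 6.87, 6.80 and 6.71 in JHU-029 (-0.05). IDI1 (probe set 7931754), the isomerase of the isoprenoid unit, had no called change either. Its values were 10.62, 10.60 and 10.66 against 10.73, 10.61 and 10.67 in FaDU (0.04, 95% interval -0.07 to 0.16) and 11.23, 11.18 and 11.25 against 11.14, 11.25 and 11.22 in JHU-029 (-0.01). The control and knockdown arrays of these 3 genes overlapped in both lines.

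In the branch from squalene to cholesterol, DHCR7 (probe set 7950067), the reductase that makes cholesterol from its immediate precursor, had the largest fall of the 27 genes in FaDU. Its log2 intensity there was 11.32, 11.33 and 11.28 under shControl and 10.82, 11.03 and 10.83 under shTP63 (log2 change -0.42, SE 0.06, adjusted p = 0.000234). In JHU-029 it read 11.43, 11.38 and 11.35 against 11.21, 11.23 and 11.23 (log2 change -0.16, SE 0.06, adjusted p = 0.219, or 0.0453 with a variance trend). The knockdown arrays lay below the controls in both lines, but the JHU-029 change did not pass. The difference between the lines was -0.26 (SE 0.09, adjusted p = 0.068), and it was not called in 16 of 20 alternatives. It passed without FaDU shTP63 replicate 2, which lay nearest to the controls (-0.32, adjusted p = 0.0147), a choice that enlarges the difference by itself.

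SC5D (probe set 7944656), the sterol desaturase that acts just before DHCR7, read 9.54, 9.61 and 9.56 under shControl in FaDU and 9.27, 9.47 and 9.08 under shTP63 (log2 change -0.30, SE 0.09, adjusted p = 0.0273). The JHU-029 arrays read 11.35, 11.19 and 11.10 against 11.13, 11.23 and 11.16 (-0.04). The FaDU groups did not overlap, though the knockdown arrays were spread wider than the controls. The SC5D call was lost without any FaDU shControl replicate (adjusted p = 0.0517 to 0.0719), without FaDU shTP63 replicate 1 (0.0616) and without FaDU shTP63 replicate 3, its lowest array (log2 change -0.20, adjusted p = 0.108). It was also lost with FaDU fitted alone (0.0732) and without both FaDU shControl replicates 1 and 2 (0.184).

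EBP (probe set 8167305) is the isomerase that moves the double bond of the sterol ring. It read 11.51, 11.47 and 11.49 under shControl in FaDU and 11.24, 11.27 and 11.29 under shTP63 (log2 change -0.22, SE 0.06, adjusted p = 0.0124). Its JHU-029 levels were 10.50, 10.44 and 10.33 against 10.39, 10.52 and 10.53 (0.06, adjusted p = 0.775). The FaDU arrays fell into separate tight groups and the JHU-029 groups overlapped. The EBP fall missed the threshold without FaDU shControl replicates 1 and 2 (adjusted p = 0.105).

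MSMO1 (probe set 8098195), the oxygenase that removes methyl groups from the sterol ring, fell in FaDU from 11.11, 11.19 and 11.22 to 10.94, 11.02 and 10.87 (log2 change -0.23, SE 0.06, adjusted p = 0.00809). Its JHU-029 values were 12.02, 11.96 and 11.97 against 11.87, 11.92 and 11.93 (-0.08, adjusted p = 0.598). The knockdown arrays lay below the controls in both lines. With FaDU fitted alone, MSMO1 missed the threshold (adjusted p = 0.0561).

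CYP51A1 (probe set 8180268), the lanosterol demethylase, read 11.73, 11.62 and 11.64 under shControl in FaDU and 11.39, 11.48 and 11.47 under shTP63 (log2 change -0.21, SE 0.06, adjusted p = 0.0148). In JHU-029 it read 11.57, 11.55 and 11.57 against 11.40, 11.43 and 11.56 (-0.10, adjusted p = 0.468). A dimmer CYP51A1 probe set (8140864) had a log2 change of 0.13 in FaDU (SE 0.18, adjusted p = 0.652), with a 95% interval of -0.25 to 0.52 that includes both 0 and -0.21. The CYP51A1 call was lost without FaDU shControl replicate 1 (adjusted p = 0.0579), without FaDU shTP63 replicate 1 (0.0548), with FaDU fitted alone (0.0604) and without FaDU shControl replicates 1 and 2 together (0.141).

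SQLE (probe set 8148280), the squalene epoxidase that makes the pathway's first oxygenated sterol precursor, had the smallest called fall. It read 12.07, 12.03 and 11.95 under shControl in FaDU and 11.80, 11.88 and 11.82 under shTP63 (log2 change -0.19, SE 0.05, adjusted p = 0.0153). JHU-029 gave 11.93, 11.88 and 11.89 against 11.80, 11.82 and 11.83 (-0.09, adjusted p = 0.508). The groups did not overlap in either line. The SQLE call was lost without FaDU shControl replicate 1 (adjusted p = 0.0551), with FaDU fitted alone (0.0905) and without FaDU shControl replicates 1 and 2, when the change was -0.12 (0.256).

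TM7SF2 (probe set 7941148), a sterol reductase that acts after lanosterol demethylation, went the other way. In FaDU it rose from 8.03, 8.05 and 7.94 to 8.26, 8.32 and 8.29 (log2 change 0.28, SE 0.07, adjusted p = 0.00775). The JHU-029 arrays read 7.23, 7.13 and 7.10 against 7.06, 7.30 and 7.16 (0.02, adjusted p = 0.945). It was the 1 synthesis gene to rise in FaDU, where all 3 knockdown arrays lay above all 3 controls. The difference between the lines was 0.26 (SE 0.10, adjusted p = 0.102), and it was not called in 18 of 20 alternatives. It passed without JHU-029 shTP63 replicate 2, the highest JHU-029 array (0.32, adjusted p = 0.0423), a choice that enlarges the difference by itself.

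LSS (probe set 8070961), which closes the ring to lanosterol, read 8.06, 7.94 and 7.97 against 7.72, 7.97 and 7.78 in FaDU (log2 change -0.16, adjusted p = 0.145) and 9.98, 9.94 and 9.85 against 9.67, 9.76 and 9.88 in JHU-029 (-0.15, adjusted p = 0.415). It passed in FaDU only without shTP63 replicate 2, the array that overlapped the controls (-0.24, adjusted p = 0.0394). Leaving out such an array enlarges the change by itself, and LSS was not called in 20 of 21 alternatives. NSDHL (probe set 8170590), the sterol dehydrogenase that acts with MSMO1, read 9.25, 9.11 and 9.26 against 9.05, 9.13 and 9.19 in FaDU (-0.08, adjusted p = 0.387). In JHU-029 it read 11.53, 11.48 and 11.47 against 11.37, 11.50 and 11.53 (-0.02, adjusted p = 0.941), with overlap in both lines.

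**Figure D2:**
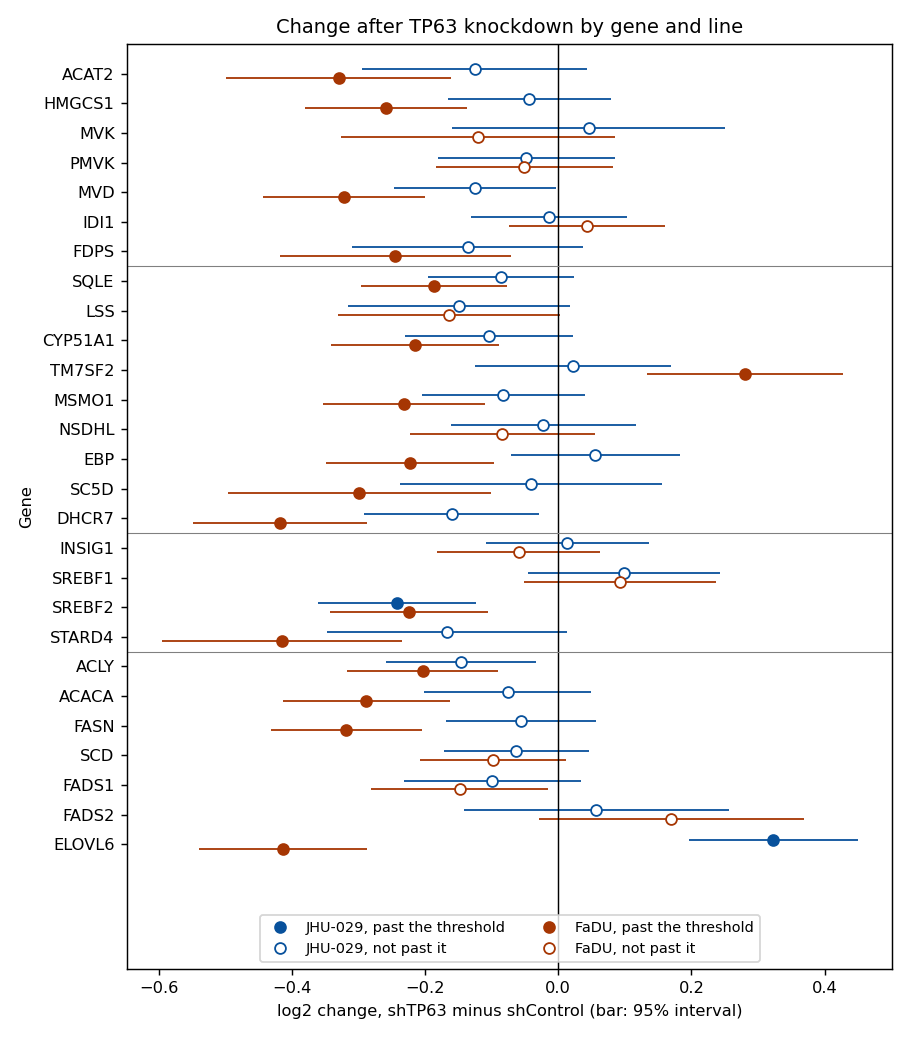
Log2 change of each synthesis gene after TP63 knockdown (shTP63 minus shControl, horizontal axis) with its 95% interval, for JHU-029 (blue) and FaDU (orange). Filled points have an adjusted p under 0.05, which holds for 17 FaDU points and 2 JHU-029 points, and in FaDU 23 of 27 points lie left of 0.

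Of the regulators, SREBF2 (probe set 8073522), which encodes the SREBP that acts mainly on cholesterol genes, fell by a like amount in both lines. Values in JHU-029 were 10.21, 10.11 and 10.13 under shControl and 9.88, 9.90 and 9.93 under shTP63 (log2 change -0.24, SE 0.05, adjusted p = 0.032). In FaDU it read 10.44, 10.42 and 10.32 against 10.16, 10.22 and 10.12 (log2 change -0.22, SE 0.05, adjusted p = 0.00825). The groups were apart in both lines, and the difference between the lines was 0.02 (95% interval -0.15 to 0.19). The JHU-029 call was lost without any of the 6 JHU-029 arrays (adjusted p = 0.0803 to 0.143), with log2 changes from -0.26 to -0.21. The FaDU call of SREBF2 was lost with FaDU fitted alone (0.0535) and without FaDU shControl replicates 1 and 2 (0.186). SREBF2 is the gene whose promoter, printed above, holds the SRE letters.

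SREBF1 (probe set 8013135), which encodes the SREBPs that act mainly on fatty acid genes, had no called change. It read 8.99, 9.10 and 9.0 against 9.14, 9.10 and 9.13 in FaDU (0.09, adjusted p = 0.352) and 8.52, 8.40 and 8.32 against 8.41, 8.52 and 8.60 in JHU-029 (0.10, adjusted p = 0.584). Both changes had a positive sign, where those of SREBF2 were negative. INSIG1 (probe set 8137526), which holds SREBPs in the endoplasmic reticulum and is itself a classic SREBP target, read 9.95, 9.97 and 9.91 against 9.90, 9.85 and 9.89 in FaDU (-0.06, 95% interval -0.18 to 0.06). JHU-029 gave 10.33, 10.18 and 10.24 against 10.18, 10.29 and 10.32 (0.01, 95% interval -0.11 to 0.14).

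STARD4 (probe set 8113491), a soluble carrier that moves cholesterol between membranes, read 8.73, 8.70 and 8.86 under shControl in FaDU and 8.38, 8.43 and 8.24 under shTP63 (log2 change -0.41, SE 0.08, adjusted p = 0.00235). In JHU-029 it read 9.0, 8.92 and 9.01 against 8.62, 8.88 and 8.92 (-0.17, adjusted p = 0.391). JHU-029 shTP63 replicate 1 was far below the other JHU-029 arrays. The difference between the lines was -0.25 (SE 0.12, adjusted p = 0.207), and it was not called in 19 of 20 alternatives. Without that array, a choice that enlarges the difference by itself, it was -0.34 (adjusted p = 0.0467).

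Fatty acid synthesis begins in the cytosol with ACLY (probe set 8015460), which cuts citrate to acetyl-CoA. In FaDU it read 11.35, 11.42 and 11.42 under shControl and 11.21, 11.21 and 11.15 under shTP63 (log2 change -0.20, SE 0.05, adjusted p = 0.0111). Its JHU-029 levels were 10.89, 10.83 and 10.78 against 10.64, 10.72 and 10.70 (-0.15, SE 0.05, adjusted p = 0.188, or 0.0308 with a variance trend). The groups were apart in both lines. The FaDU call of ACLY was lost with FaDU fitted alone (adjusted p = 0.0592) and without FaDU shControl replicates 1 and 2 (0.0597).

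ACACA (probe set 8014487), the carboxylase that makes malonyl-CoA and sets the rate of the pathway, fell in FaDU from 10.30, 10.13 and 10.15 to 9.88, 9.93 and 9.90 (log2 change -0.29, SE 0.06, adjusted p = 0.00235). Values in JHU-029 were 9.53, 9.51 and 9.50 against 9.37, 9.46 and 9.48 (-0.08, adjusted p = 0.651). FASN (probe set 8019392), the synthase that builds palmitate, fell in FaDU from 11.25, 11.24 and 11.15 to 10.89, 10.91 and 10.89 (log2 change -0.32, SE 0.05, adjusted p = 0.000583). Its JHU-029 arrays read 10.47, 10.42 and 10.45 against 10.34, 10.37 and 10.46 (-0.06, adjusted p = 0.735). The FaDU groups of ACACA and FASN did not overlap.

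ELOVL6 (probe set 8102342), the elongase that lengthens palmitate, moved in opposite directions. In FaDU it fell from 9.86, 9.76 and 9.72 to 9.37, 9.37 and 9.37 (log2 change -0.41, SE 0.06, adjusted p = 0.000192). In JHU-029 it rose from 8.0, 7.95 and 8.09 to 8.29, 8.31 and 8.41 (log2 change 0.32, SE 0.06, adjusted p = 0.0107). No control array overlapped a knockdown array of its line, and the 3 FaDU knockdown arrays gave the same value to 2 decimals. The JHU-029 rise missed the threshold without shControl replicate 2 (0.29, adjusted p = 0.0623) or shTP63 replicate 3 (0.29, adjusted p = 0.056).

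The desaturases did not pass the test in either line, though with a variance trend SCD (adjusted p = 0.0228) and FADS1 (0.0242) passed in FaDU, as did FADS1 with dim genes left out (0.0393). SCD (probe set 7929816), which puts the first double bond into saturated chains, read 12.13, 12.17 and 12.08 against 12.01, 12.05 and 12.01 in FaDU (-0.10, adjusted p = 0.183) and 12.46, 12.45 and 12.44 against 12.33, 12.39 and 12.44 in JHU-029 (-0.06, adjusted p = 0.671). FADS1 and FADS2, neighbours on chromosome 11 on opposite strands, desaturate polyunsaturated chains in successive steps. FADS1 (probe set 7948612) read 11.39, 11.29 and 11.36 against 11.12, 11.29 and 11.19 in FaDU (-0.15, adjusted p = 0.0976) and 10.44, 10.33 and 10.31 against 10.23, 10.25 and 10.32 in JHU-029 (-0.10, adjusted p = 0.534). FADS2 (probe set 7940565) read 8.54, 8.51 and 8.52 against 8.54, 8.80 and 8.74 in FaDU (0.17, adjusted p = 0.207) and 8.29, 8.12 and 8.14 against 8.05, 8.40 and 8.27 in JHU-029 (0.06, adjusted p = 0.871). These neighbours thus had changes of opposite sign, neither of which was called.

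**Figure D3:**
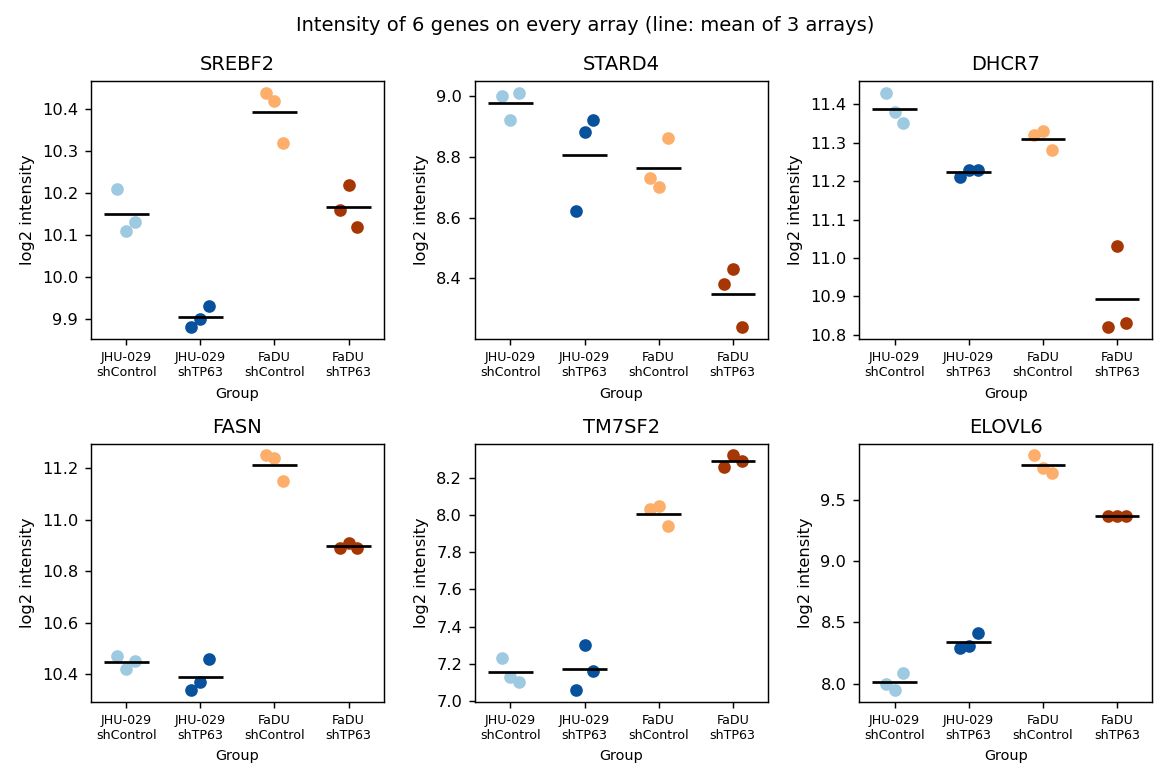
Log2 intensity on each array (points) and group mean (bar) for 6 synthesis genes in the 4 groups; the vertical axes differ between genes and do not start at 0. SREBF2 falls in both lines, ELOVL6 rises in JHU-029 and falls in FaDU, and TM7SF2 rises in FaDU.

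The lines were then compared for the size of the knockdown effect. The FaDU effect was lower than the JHU-029 effect for 3 synthesis genes, ELOVL6, EBP and FASN, and higher for 0 (8.25% of all genes lower and 4.97% higher). An unadjusted p under 0.05 was reached by 8 of 27 (29.6%), near the 25.8% of all genes. The difference had a negative sign for 23 of 27, against 8804 of all 18404 genes. Its median was -0.11 over the 27 and 0.01 over all genes. ELOVL6 differed by -0.74 (SE 0.08, adjusted p = 0.000142), and this held in all alternatives. EBP differed by -0.28 (SE 0.08, adjusted p = 0.0432) and FASN by -0.26 (SE 0.07, adjusted p = 0.0346). These calls were not stable to the loss of 1 array. The EBP difference missed the threshold without any array other than JHU-029 shControl replicate 1 and JHU-029 shTP63 replicate 1 (adjusted p up to 0.116). The FASN difference missed it without any array other than FaDU shControl replicate 3 and JHU-029 shTP63 replicate 1 (adjusted p up to 0.0881). For the other 13 genes that fell in FaDU, a difference between the lines was not called, and the SREBF2 interval includes 0. Under other settings DHCR7 and HMGCS1 passed with an offset of 32 (adjusted p = 0.0318 and 0.0483), a variance trend (0.00809 and 0.00877) and dim genes left out (0.022 and 0.0344). ACACA passed with a variance trend (0.0498) and dim genes left out (0.0413), and MVD (0.0495) and TM7SF2 (0.0392) passed with dim genes left out. EBP and FASN missed the threshold with cyclic loess (0.0558 and 0.0632) and without FaDU shControl replicates 1 and 2 (0.132 and 0.183).

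Under the control vector the synthesis genes differed between the lines by -2.28 to 1.77 log2 units, whereas the largest change after knockdown was -0.42. Of the 27 genes, 12 were lower and 12 higher in FaDU than in JHU-029, while 63.8% of all genes were called, 30.4% lower and 33.4% higher. The control arrays of the lines did not overlap for 27 of 27 genes, with FaDU wholly lower for 13 (32.4% of all genes) and wholly higher for 14 (36.6%). With arrays centred on their medians instead, the shares over all genes were 26.3% lower and 44.8% higher, as the median of all genes moved from 0.05 to 0.16. By role, 5 of 7 mevalonate enzymes were lower in FaDU and 6 of 7 fatty acid enzymes were higher. At least 2-fold differences were seen for 8 genes. NSDHL was 4.87-fold lower in FaDU (log2 difference -2.28, SE 0.06), LSS 3.81-fold lower (-1.93, SE 0.08), SC5D 3.12-fold lower (-1.64, SE 0.09) and ACAT2 2.87-fold lower (-1.52, SE 0.08). MVK was 2.41-fold and HMGCS1 2.30-fold lower. ELOVL6 was 3.40-fold higher in FaDU (1.77, SE 0.06) and EBP 2.09-fold higher (1.06, SE 0.06).

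Smaller differences between the control groups were called for 16 further genes. FADS1 was 1.98-fold, TM7SF2 1.81-fold, FASN 1.70-fold, PMVK 1.62-fold, ACACA 1.60-fold, SREBF1 1.54-fold and ACLY 1.48-fold higher in FaDU. MSMO1 was 1.75-fold and IDI1 1.51-fold lower. The remaining called differences were of 1.29-fold or less (FDPS, FADS2 and SREBF2 higher, and SCD, MVD, INSIG1 and STARD4 lower in FaDU). The STARD4 call (adjusted p = 0.0439) was lost without any control array other than FaDU shControl replicate 3 (adjusted p = 0.0511 to 0.128) and without FaDU shTP63 replicate 1 (0.0516). Its log2 difference of -0.21 became -0.11 with median centring (adjusted p = 0.257), -0.12 with cyclic loess (0.189) and -0.11 without FaDU shControl replicates 1 and 2 (0.467). The calls of SREBF2 and FADS2 were lost in that last fit (0.0732 and 0.0634). SQLE, CYP51A1 and DHCR7 did not differ by the test, with log2 differences of 0.12 (adjusted p = 0.0548), 0.10 (0.155) and -0.08 (0.296). SQLE passed without FaDU shControl replicate 3 (0.15, adjusted p = 0.0261), with median centring (0.22, 0.00225), with cyclic loess (0.14, 0.0219), with an offset of 32 (0.0229), with dim genes left out (0.0222) and with a variance trend (0.00387). CYP51A1 passed with median centring (0.20, adjusted p = 0.00886), cyclic loess (0.13, 0.0425) and a variance trend (0.0464). Of the 16 genes that fell in FaDU, 6 started lower and 7 higher there than in JHU-029. This comparison uses the same control arrays as the knockdown contrasts.

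Other lipid genes were read from 8 further lists. For comparison, 14.2% of all genes were called lower and 12.4% higher in FaDU. Of 9 measured genes that process SREBPs or sense sterol, 6 rose and 1 fell in FaDU, with a median log2 change of 0.19. MBTPS2, the protease that makes the last cut to free an SREBP, rose from 10.31 ± 0.12 (SD, n = 3) to 10.71 ± 0.07 (log2 change 0.40, SE 0.07, adjusted p = 0.000753). RNF139, a sterol-sensing ubiquitin ligase, rose from 9.16 ± 0.06 to 9.71 ± 0.03 (0.55, SE 0.06, adjusted p = 3.8e-05). ERLIN1, which restrains SREBP release, fell by 0.21 (SE 0.05, adjusted p = 0.00891). Without FaDU shControl replicate 3, 3 of these genes rose, and the ERLIN1 call was lost with FaDU fitted alone (0.0678) and without FaDU shControl replicates 1 and 2 (0.124). None of the 9 was called in JHU-029, where the limma fit gave an unadjusted p under 0.05 for 5 (55.6%, against 14.8% of all genes).

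Of 7 measured further sterol-responsive genes, 2 fell and 3 rose in FaDU (14.2% and 12.4% of all genes). ACSS2, which makes acetyl-CoA from acetate, fell from 7.65 ± 0.07 (SD, n = 3) to 7.12 ± 0.11 (log2 change -0.53, SE 0.09, adjusted p = 0.000575). TMEM97, a sterol-binding partner of NPC1, fell from 10.16 ± 0.08 to 9.74 ± 0.007 (-0.42, SE 0.05, adjusted p = 8.5e-05). NPC1, which exports cholesterol from lysosomes, rose by 0.33 (SE 0.07, adjusted p = 0.00208), and MYLIP, a ligase that marks lipoprotein receptors for decay, rose by 0.30 (SE 0.07, adjusted p = 0.00622). The MYLIP call was lost without FaDU shControl replicates 1 and 2 (0.0623).

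The isoprenoid branch leaves the pathway at FDPS. Of its 14 measured genes, 4 fell and 1 rose in FaDU, and 1 fell and 1 rose in JHU-029. Among all genes, 14.2% fell and 12.4% rose in FaDU, and 1.35% fell and 1.8% rose in JHU-029. Without FaDU shControl replicate 3 or FaDU shTP63 replicate 1, 2 of them rose in FaDU. ZMPSTE24, the protease that trims prenylated lamin A, had a log2 change of -0.93 in FaDU (SE 0.06, adjusted p = 3e-07). It fell in JHU-029 too, with a change of -0.33 (SE 0.06, adjusted p = 0.00744). PDSS1, which makes the tail of coenzyme Q, had a FaDU change of -0.67 (SE 0.10, adjusted p = 0.000376). PGGT1B, a geranylgeranyl transferase subunit, rose there by 0.32 (SE 0.07, adjusted p = 0.00415).

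Around fatty acid synthesis, 5 of 22 measured genes of elongation, activation and further synthesis fell in FaDU and 4 rose (2 without FaDU shControl replicate 3). The shares of all genes were 14.2% lower and 12.4% higher. FADS3, beside FADS1 and FADS2, fell from 10.47 ± 0.06 (SD, n = 3) to 9.50 ± 0.01 (log2 change -0.97, SE 0.05, adjusted p = 1.2e-07), a larger fall than that of any of the 27 synthesis genes. ME1, malic enzyme, a source of NADPH for lipid synthesis, fell by 0.70 (SE 0.07, adjusted p = 8.9e-06). ACSL5, an acyl-CoA synthetase, rose by 0.81 (SE 0.11, adjusted p = 0.000191) and ACACB, the mitochondrial acetyl-CoA carboxylase, by 0.30 (SE 0.05, adjusted p = 0.00118).

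**Figure D4:**
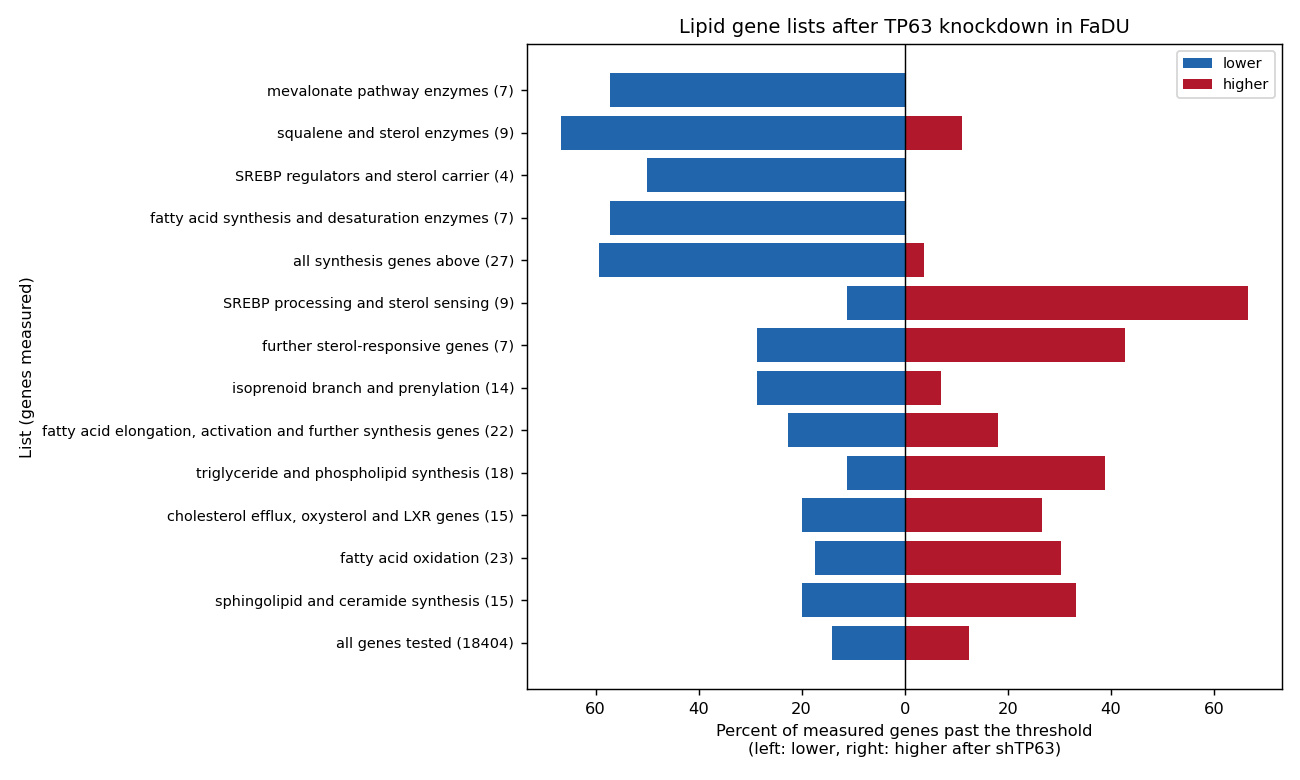
Percent of the measured genes of each lipid list called lower (left, blue) and higher (right, red) in FaDU after TP63 knockdown, with the number of measured genes in brackets and all 18404 genes at the bottom. The synthesis genes lie mostly to the left (16 of 27 lower), and the genes of SREBP processing mostly to the right (6 of 9 higher).

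The arrays carried epithelial transcripts in both lines. All 8 measured epithelial markers (KRT5, KRT14, DSG3, SFN, EPCAM, CDH1, CDH3 and DSP) lay above the median of all genes on every array. None of 7 hepatocyte or adipocyte markers did. In FaDU, 6 of these 8 epithelial markers fell (14.2% of all genes did), while EPCAM (0.04) and CDH1 (-0.04) were not called. The summed level of all 8 (log2 of summed intensities) was 14.52 to 14.54 on the controls and 14.02 to 14.06 after knockdown. EPCAM, at 12.28 on the FaDU controls and 10.12 on the JHU-029 controls, is part of this sum. In JHU-029 the sum was 15.14 to 15.21 and 15.04 to 15.13, and EPCAM rose by 0.25 (adjusted p = 0.0177). The endothelial gene CDH5 rose from 8.69 to 9.69 in FaDU (adjusted p = 1.2e-06), while the endothelial markers PECAM1, VWF and KDR lay between 4.46 and 5.40 in its groups. The immune genes CD14 and LYZ rose by 0.51 and 0.76 in FaDU (adjusted p = 0.00102 and 0.00185), with the pan-leukocyte gene PTPRC at 3.42 and 3.55. No fibroblast marker of 5 was called in either line. The part of these shifts in the synthesis genes' changes was not tested, and in bulk RNA fewer cells of a type and less RNA per cell cannot be told apart. Arrays of a group correlated at 0.993 to 0.997 over all probe sets.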

How the data were processed

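The 12 arrays measured total RNA of the 4 groups. The deposited values are linear intensity, which the authors made with RMA in R 2.15.1 per the submitters' processing notes. The RMA implementation, the probe set definition and whether all arrays were normalised together are not given in the sources used here. RMA draws arrays to a common distribution, so a shift shared by most genes would not be seen. Array medians lay between 88.2 and 94.6.

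Log2 was taken here. The platform annotation gave a single gene symbol for 19158 of 32321 probe sets, which were used, several symbols for 1388 and no entry for 11775. The probe set with the highest mean stood for a gene. limma 3.58.1 in R 4.3.3 fitted 1 mean per group over all 12 arrays (8 residual degrees of freedom) and gave shTP63 minus shControl in each line, the difference of these effects (FaDU minus JHU-029) and FaDU minus JHU-029 under shControl. The knockdown effects, their difference and the control comparison share control arrays. SE and 95% intervals are those of the fit, and fold changes are from log2 means. The steps were tested on simulated data.

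The 27 genes and all other lists were chosen with earlier results of these data known. All measured synthesis genes are named, and from each other list up to 2 genes per direction and line with the largest called change. Alternatives were median centring, cyclic loess, an offset of 32, leaving out dim genes, every probe set on its own, a variance trend, each line fitted alone, a replicate block and leaving out arrays. The same alternatives were added for the other lists after seeing the data. The number of arrays limits the precision.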

Additional observations from a re-analysis of the deposited data

Results flagged for a closer look

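The knockdown effect was called different between the lines for 3 of the 27 synthesis genes (11.1%, against 13.2% of all genes). This used limma's test of the difference itself. The ELOVL6 call held in all alternatives, while those of EBP and FASN were each lost in 13 of 20. The FaDU effect minus the JHU-029 effect on the log2 scale was -0.74 for ELOVL6 (adjusted p = 0.000142), -0.28 for EBP (adjusted p = 0.0432) and -0.26 for FASN (adjusted p = 0.0346), with 8.25% of all genes called lower in this comparison. ELOVL6 rose on 3 of 3 JHU-029 knockdown arrays and fell on 3 of 3 FaDU knockdown arrays against every control of the line.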

How the results depend on the processing

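The median change of the 27 genes stayed negative in both lines in every alternative run, and the FaDU counts under scaling, offset and probe set alternatives stayed within 1.5 times of 16 falls and 1 rise. Falls in FaDU numbered 9 with FaDU fitted alone (10.7% of all genes called lower). They numbered 12 to 16 when 1 array was left out, with 12.4% to 14.2% of all genes called lower. The lowest count, 12, came without FaDU shControl replicate 1 (12.9% of all genes). Without FaDU shControl replicates 1 and 2, which leaves 1 FaDU control array, the median change was -0.22 and several calls were lost. Falls in JHU-029 numbered 3 with a variance trend (with DHCR7 and ACLY added) and 0 to 1, as did rises, when 1 array was left out. The difference between the lines was called lower in FaDU for 1 gene with cyclic loess, 5 with an offset of 32, 7 with dim genes left out, 6 with a variance trend, 1 without the FaDU shControl replicates 1 and 2, and 1 to 4 when 1 array was left out. It was called higher for 1 with dim genes left out and for 0 to 1 when 1 array was left out. The share of all genes whose difference between the lines was called lower in FaDU moved too, from 8.25% in the main fit. It was 7.36% with cyclic loess, 10.1% with an offset of 32, 20.9% with dim genes left out and 10.4% with a variance trend. The median difference of the 27 genes was -0.063 with cyclic loess and -0.14 to -0.0713 when 1 array was left out, against -0.11 in the main fit. The median of the control comparison was 0.20 with median centring, 0.0119 with dim genes left out and 0.0533 without the FaDU shControl replicates 1 and 2, against 0.10. The cause of these moves was not tested.

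Same-numbered arrays did not deviate together (correlations of their deviations from -0.34 to 0.01), so the numbers name arrays only. With the replicate number as a block, 0 synthesis genes fell in JHU-029, 15 fell in FaDU and 1 differed between the lines; the adjusted p was 0.0666 for SREBF2 in JHU-029, 0.0529 for FDPS in FaDU, and 0.0827 for EBP and 0.0724 for FASN in the difference.

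Signs turned for uncalled values only. INSIG1 in JHU-029 was -0.0046 with cyclic loess, PMVK in FaDU was 0.0061 without the FaDU shControl replicates 1 and 2, and DHCR7 in the control comparison was 0.0267 with median centring. When 1 array was left out, the JHU-029 change ranged from -0.0205 to 0.0541 for INSIG1, -0.0984 to 0.0272 for SC5D, -0.0373 to 0.0177 for IDI1, -0.0435 to 0.0809 for TM7SF2, -0.0552 to 0.0267 for NSDHL, -0.0252 to 0.153 for FADS2 and -0.0282 to 0.112 for MVK. The SREBF2 difference ranged from -0.0168 to 0.044. Signal over background is not known for these arrays, which limits what can be said of dim probe sets.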

Other observations

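Lipid storage, oxidation and sphingolipid genes moved in FaDU as well, with more members called higher than lower. Of 18 measured genes of triglyceride and phospholipid synthesis, 7 rose and 2 fell, where 12.4% of all genes were called higher and 14.2% lower. GPAT4, which adds the first acyl chain to glycerol phosphate, rose from 8.73 ± 0.19 (SD, n = 3) to 9.20 ± 0.07 (log2 change 0.47, SE 0.09, adjusted p = 0.00167). PLIN2, which coats lipid droplets, fell by 0.27 (SE 0.06, adjusted p = 0.00312). The rise of LPIN2 (0.40) was lost without FaDU shControl replicates 1 and 2 (adjusted p = 0.242). The fall of AGPAT5 (log2 change -0.23) was lost without FaDU shControl replicate 1 (adjusted p = 0.0645), without FaDU shTP63 replicate 1 (0.0642) or replicate 3 (0.0555), without FaDU shControl replicates 1 and 2 (0.152) and with FaDU fitted alone (0.0882). Of 23 fatty acid oxidation genes, 7 rose and 4 fell in FaDU, against the same 12.4% and 14.2% of all genes. SLC25A20, the carrier that brings acylcarnitine into mitochondria, rose by 0.72 (SE 0.08, adjusted p = 3e-05), ACADL rose by 0.61 (SE 0.12), PPARD, a fatty acid receptor, fell by 0.64 (SE 0.06, adjusted p = 9.6e-06) and ECI2 fell by 0.38 (SE 0.08). Without FaDU shControl replicates 1 and 2, fewer of these triglyceride, phospholipid and oxidation genes were called higher, as were fewer of all genes. That fit leaves 1 FaDU control array. Of 15 sphingolipid genes, 5 rose and 3 fell in FaDU, where 12.4% of all genes were called higher and 14.2% lower. UGCG, which makes glucosylceramide for the skin barrier, rose from 8.08 ± 0.10 to 9.18 ± 0.01 (log2 change 1.10, SE 0.07, adjusted p = 3e-07), SMPD1, acid sphingomyelinase, rose by 1.02 (SE 0.08), CERS6 fell by 0.42 (SE 0.05) and KDSR fell by 0.36 (SE 0.07).

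Of 15 cholesterol efflux and storage genes, 3 fell and 4 rose in FaDU and 2 fell in JHU-029. The shares of all genes were 14.2% lower and 12.4% higher in FaDU, and 1.35% lower in JHU-029. LIPA, the lysosomal lipase that frees cholesterol from its esters, fell from 9.62 ± 0.02 (SD, n = 3) to 8.38 ± 0.11 in FaDU (log2 change -1.24, SE 0.07, adjusted p = 1.4e-07) and from 10.27 ± 0.04 to 9.93 ± 0.10 in JHU-029 (-0.33, adjusted p = 0.0199). SCARB1, the receptor for high-density lipoprotein, fell by 0.57 in FaDU (SE 0.06), SOAT1, which esterifies cholesterol, rose by 0.30 (SE 0.05) and STARD3 rose by 0.26 (SE 0.05). ABCA1, the cholesterol exporter, fell by 0.42 in JHU-029 (SE 0.07, adjusted p = 0.00445). PPARD also fell in JHU-029, by 0.42 (SE 0.06, adjusted p = 0.00287), and GPAT3 rose there by 0.59 (SE 0.08, adjusted p = 0.00233). NUS1 (0.23), ACSL1 (0.33), CPT2 (0.22), ASAH1 (0.24) and SLC25A20 (0.43) were called higher in JHU-029. Without JHU-029 shControl replicate 2, adjusted p was 0.0897 for LIPA, 0.126 for NUS1, 0.188 for ACSL1, 0.104 for CPT2, 0.114 for ASAH1 and 0.063 for SLC25A20. The SLC25A20 call was also lost without JHU-029 shTP63 replicate 3 (0.0574). The NUS1 call was lost without any JHU-029 array (up to 0.144), and the LIPA call without any but shTP63 replicate 3. Those of ACSL1, CPT2 and ASAH1 were lost without any but shTP63 replicate 1 (up to 0.188), and that of ACSL1 also without FaDU shControl replicate 2 or any FaDU shTP63 replicate.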
